A study of Mus musculus with 4 samples.

Results

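Primary epidermal keratinocytes of Il17rc knockout (KO) mice that had received interleukin-17A (IL-17A) were compared with untreated wild-type (WT) keratinocytes, to describe which transcripts still differed from the untreated state in cells lacking a chain of the IL-17A receptor. The comparison takes 2 of the 4 libraries of the series, with 1 library a side, and all 13102 gene rows. A rule of size was applied to the 12934 genes whose level, averaged over the 4 libraries, reached 1 CPM (the count relative to the scaled library size). Each of the 13102 rows was above 1 CPM in at least 2 of the 4 libraries. A gene above 1 CPM in 1 library alone, or in none, therefore has no row. Shares and list counts below refer only to genes with a row. The cells came from neonatal C57BL/6 mice and were cultured for 48 h. Untreated WT received no cytokine, while the Il17rc KO cells received IL-17A at 100 ng/mL for 8 h. The other libraries of the series, WT cells and Il17rd KO cells with the same dose and time of IL-17A, are used here only to place levels. The sources used here do not say which part of Il17rc was deleted, nor how many mice of which sex gave the cells of a library.

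Treatment and genotype both differ between the compared libraries, and an untreated Il17rc KO library was not analysed here, so an effect of the cytokine, of the genotype and of the individual culture cannot be told apart. There is no replicate on either side and hence no p-value. Ratios are given with the exact 95% interval that the counts allow, which covers counting error only. A gene was called when the ratio of its scaled counts was 2-fold or more and the interval excluded 1. Counts of a gene are always listed for untreated WT first, then for IL-17A WT, for Il17rc KO and last for Il17rd KO.

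As background, IL-17A is a cytokine of T cells that acts on epithelia through a receptor of the chains IL-17RA and IL-17RC. The adaptor ACT1 then leads to NF-kB activity, to the IκBζ factor and to longer-lived inflammatory transcripts. In skin the pathway is known for neutrophil-attracting chemokines, antimicrobial proteins and a hyperproliferative epidermis. Epidermal keratinocytes divide in the basal layer and, on leaving it, switch from keratins 5 and 14 to keratins 1 and 10 and later build the cornified envelope.

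The 4 libraries held 19711866 to 19904695 counts, so depth was nearly equal. The cells carried their labelled identity: Krt5 and Krt14, the keratins of basal keratinocytes, stood at 7086 and 6150.0 FPKM in the Il17rc KO library, and at 9282 and 6744 FPKM in untreated WT. Trp63, the transcription factor gene of stratified epithelium, had 6349, 5734, 5683 and 7647 counts. Y-linked and X-inactivation transcripts were close between the compared libraries, with Ddx3y at 654 and 749 counts and Xist at 2420 and 2668 counts in untreated WT and Il17rc KO. In IL-17A WT and Il17rd KO, Ddx3y had 233 and 2 counts and Xist 4750 and 8513.

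By the rule of size, Il17rc KO stood above untreated WT for 940 genes, which is 7.27% of the genes tested, and below it for 905, which is 7.0%. The counts of called genes in each list below are to be read beside these shares. At 4-fold or more the calls were 287 higher and 137 lower, and at 8-fold or more 55 and 35. The median size of the log2 ratio, without its sign, was 0.39, and the median log2 ratio itself was 0.00. The other comparisons with untreated WT share its library and are given side by side. IL-17A WT had 1160 genes higher (8.97%) and 1384 lower (10.7%), with a median size of 0.43, and Il17rd KO had 693 higher (5.36%) and 433 lower (3.35%), with a median size of 0.29. Genes with a near-identical copy elsewhere in the genome made up 254 of the 940 higher and 126 of the 905 lower calls, and annotated pseudogenes 136 and 59. The values of these genes are uncertain, because a read may have been counted for the wrong copy.

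**Figure D1:**
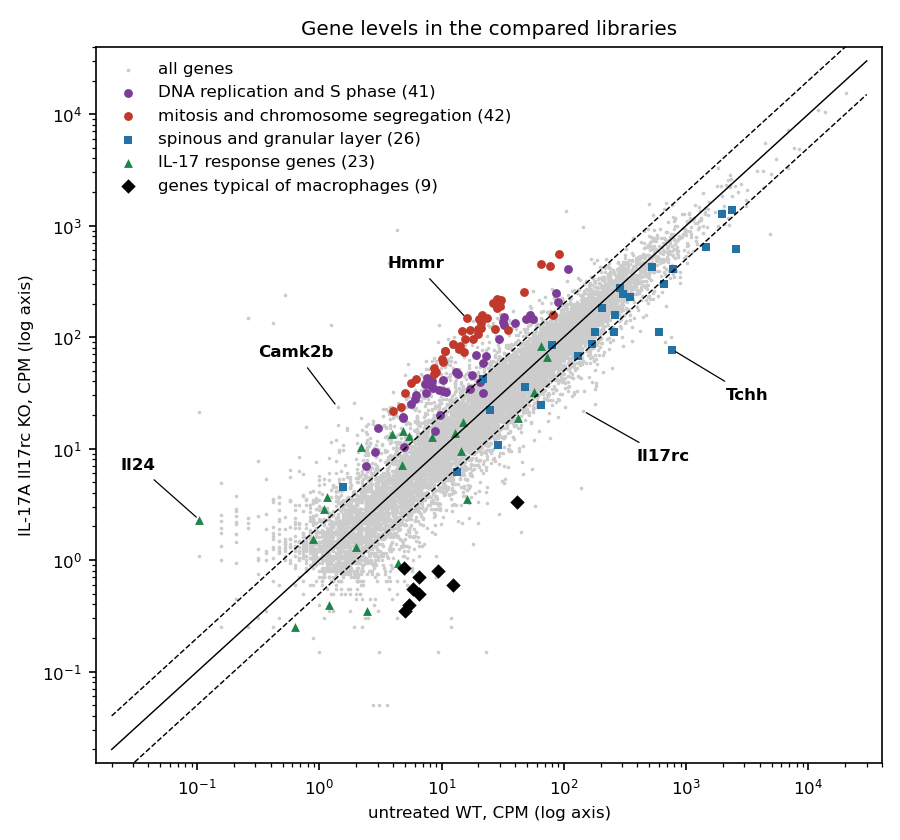
Level of each gene in untreated WT (x axis) and IL-17A Il17rc KO (y axis), both in CPM on log axes. The solid line marks equal levels and the dashed lines 2-fold; each point is 1 gene, coloured by list, and the 3 tested genes with 0 counts in either library are not drawn. The mitosis and S phase genes lie above the upper dashed line with few exceptions, the genes typical of macrophages below the lower one, and the IL-17 response genes on both sides.

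The targeted gene was examined first. Il17rc (chromosome 6, 113471427 to 113483140, plus strand, GRCm38) had 2729, 1152, 439 and 1718 counts and was 6.50-fold lower (5.88 to 7.21) in Il17rc KO than in untreated WT. It was lowest in the library labelled Il17rc KO, but 439 counts remained, whose exons cannot be read from a gene total. Il17ra, which encodes the chain shared by several IL-17 receptors, had 548, 462, 577 and 558 counts, a ratio of 1.01 (0.894 to 1.13). Il17re, next to Il17rc on the chromosome, had 1229, 1004, 1061 and 1052 counts and was not called. Il17rd, which encodes a further receptor family member, had 252, 265, 150 and 5 counts, 1.76-fold lower (1.43 to 2.17) in Il17rc KO and short of the size rule. Of the 26 other genes tested that start within 1 Mb of Il17rc, 3 were higher and 0 lower. Of all genes, 7.27% were higher and 7.0% lower, and 26 genes are too few to compare with these shares. The higher neighbours were Rad18, Fancd2 and Hrh1.

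The 22 genes for IL-17 receptor signalling had a median log2 ratio of -0.08, with 1 called higher and 2 lower. Of all genes, 7.27% were higher and 7.0% lower. Besides Il17rc the lower gene was Il17rb, the receptor gene of IL-25, with 72, 3, 25 and 28 counts, 3.01-fold lower (1.89 to 4.96). Srsf1, a splicing factor gene also linked to IL-17 transcript stability, was 2.05-fold higher (1.96 to 2.15), at 2778, 5636, 5963 and 5622 counts. Its counts were nearly equal in the 3 libraries that received IL-17A. The adaptor gene Traf3ip2, which encodes ACT1, was at 920, 1216, 917 and 1079 counts, with no call. Among 26 genes of NF-kB feedback, 1 was higher and 1 lower (median -0.18). Zc3h12c, a ribonuclease gene, was 2.59-fold higher (2.28 to 2.95) and Tifa, a TRAF-interacting adaptor gene, 2.03-fold lower (1.52 to 2.74). The call of Tifa ended with library totals, with a mean of at least 5 CPM and with the whole interval required beyond 2-fold. Nfkbia, the inhibitor gene that NF-kB itself switches on, was at 5513, 5629, 3637 and 5592 counts, and its lower count in Il17rc KO (1.59-fold, 1.52 to 1.65) missed the rule.

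Genes known to answer IL-17 in epithelia were divided in direction. Of 34 listed, 23 were tested, and Il17rc KO stood above untreated WT for 7 of them, below for 5 and within the rule for 11. Their median log2 ratio was 0.22, against 0.00 for all genes, of which 7.27% were higher and 7.0% lower. The higher count was 4 when the whole interval had to lie beyond 2-fold, and the lower count was 2 at a mean of at least 5 CPM and 3 without genes that have near-identical copies. For the same 23 genes against the same untreated library, IL-17A WT had 17 higher and 0 lower (median 1.73), and Il17rd KO 16 higher and 1 lower (median 1.55). Against IL-17A WT, the Il17rc KO level lay below for 22 of the 23 genes and above for 1. It was the lowest of the 4 libraries for 9 of them.

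The 7 higher genes were 3 cytokine or chemokine genes, 3 antimicrobial genes and 1 protease gene. Il24 (chromosome 1, 130882074 to 130887454, minus strand), a cytokine of the IL-10 family, had 2, 333, 46 and 40 counts and was 22.0-fold higher (5.75 to 187) in Il17rc KO. Its width follows from the 2 counts in untreated WT. The neutrophil chemokine genes Cxcl1, with 92, 4443, 286 and 468 counts, and Cxcl2, with 22, 426, 73 and 82 counts, stood 2.97-fold (2.34 to 3.80) and 3.17-fold (1.95 to 5.37) above untreated WT. For these 3 genes the untreated library was lowest and IL-17A WT was far above both knockouts. The knockouts lay close together for Il24 and Cxcl2, while Cxcl1 was higher in Il17rd KO than in Il17rc KO. Defb14, a beta-defensin gene, had 42, 147, 207 and 203 counts and was 4.71-fold higher (3.37 to 6.73). It was the 1 member that stood above IL-17A WT. The calprotectin genes S100a8, at 75, 653, 269 and 2575 counts, and S100a9, at 103, 770, 258 and 3470 counts, were 3.43-fold (2.65 to 4.49) and 2.39-fold (1.90 to 3.04) higher in Il17rc KO. Here the Il17rd KO library was highest. Mmp9, a gelatinase gene, had 21, 1314, 57 and 119 counts, 2.59-fold higher (1.55 to 4.51).

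Letters of a kappa-B site stood directly upstream of both chemokine genes. The windows below are the 120 bases before the outermost annotated start on the plus strand, from RefSeq's promoter table (GRCm38.p6), for Cxcl1 at chr5:90891121-90891240 and Cxcl2 at chr5:90903751-90903870. They are shown because these neighbouring genes were higher together, and capitals mark GGAATTTCC.
Cxcl1: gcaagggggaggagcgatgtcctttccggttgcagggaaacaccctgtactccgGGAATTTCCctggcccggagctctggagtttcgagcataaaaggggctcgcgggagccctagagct
Cxcl2: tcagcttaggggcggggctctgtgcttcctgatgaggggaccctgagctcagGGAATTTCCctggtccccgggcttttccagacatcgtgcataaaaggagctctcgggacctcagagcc
The run lay 66 and 68 bases before the start. GGACTTTCC or GGAATTTCC, on either strand, was found in 3 of 15 IL-17 response genes with a promoter entry, against 0.8% of the 9439 tested genes with one. Among called genes with an entry it was in 5 of 610 higher genes (0.8%) and 9 of 621 lower genes (1.4%). Promoter entries span 250 bases before to 50 bases after the start, and a match of letters describes the sequence and not binding.

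The 5 lower genes lay below every other library in Il17rc KO. Saa3, an acute phase protein gene with 47, 38, 7 and 43 counts, was 7.02-fold lower (3.15 to 18.4). By the copy rule it has 22 matches elsewhere, 0 of them among the gene rows. Lcn2, which encodes an iron-sequestering protein, had 85, 54, 19 and 135 counts, 4.68-fold lower (2.82 to 8.15). The collagenase gene Mmp13 had 307, 564, 71 and 423 counts, 4.52-fold lower (3.48 to 5.94). Each of the 3 lay more than 2-fold below the remaining libraries. S100a7a had 23, 66, 8 and 76 counts, 3.01-fold lower (1.30 to 7.78), and has 3 such matches, 0 of them among the gene rows. The monocyte chemokine gene Ccl2 had 812, 703, 375 and 416 counts, 2.27-fold lower. For Ccl2 the Il17rd KO library was nearly as low.

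Among the 11 genes without a call were several that stood far higher in IL-17A WT. Il1a, the interleukin-1 alpha gene, had 246, 6135, 275 and 501 counts, a ratio of 1.07 (0.897 to 1.27) in Il17rc KO. Cxcl5, a further neutrophil chemokine gene, had 12, 951, 5 and 70 counts. Csf3, which encodes granulocyte colony-stimulating factor, had 17, 610, 31 and 53 counts, a ratio of 1.74 (0.935 to 3.36), so a difference from untreated WT was not detectable at this depth. The target regulator genes Nfkbiz and Zc3h12a, which encode IκBζ and the ribonuclease regnase-1, split: Nfkbiz had 1257, 4338, 1659 and 4209 counts and was 1.26-fold higher (1.17 to 1.36), and Zc3h12a had 1095, 3322, 646 and 3274 counts and was 1.77-fold lower (1.61 to 1.96). Neither reached 2-fold, while both were more than 2-fold above Il17rc KO in each of the other libraries with IL-17A. The remaining members were Ccl20 at 91, 152, 143 and 236 counts, Steap4 at 160, 486, 255 and 939, Lif at 287, 672, 349 and 372, Tnfaip2 at 275, 914, 192 and 633, Tnfaip3 at 1390, 1787, 1324 and 987, and Il1f6 at 38, 171, 26 and 240.

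**Figure D2:**
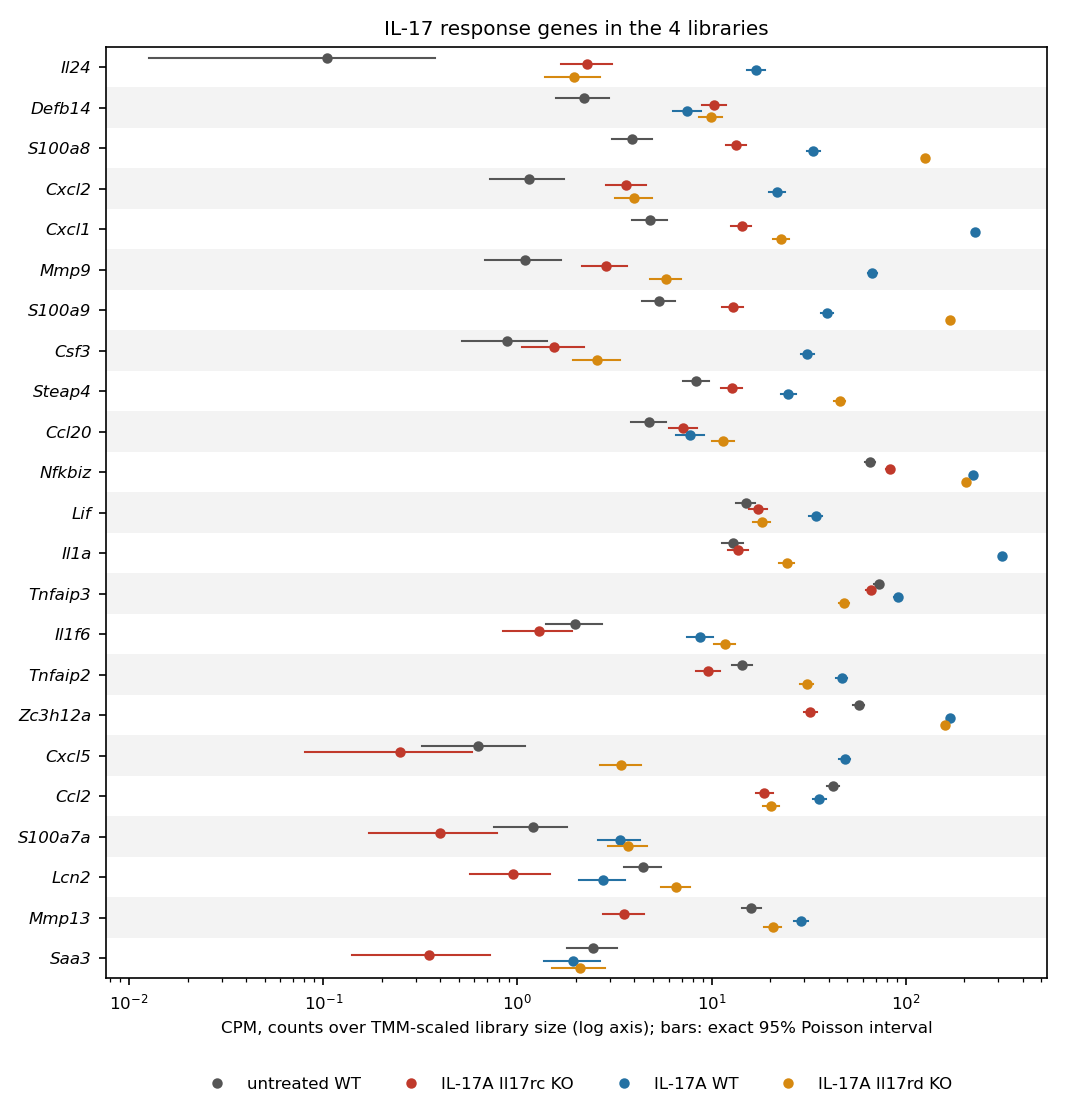
Level of the 23 tested IL-17 response genes in CPM (log axis) in each of the 4 libraries, ordered by the ratio of IL-17A Il17rc KO to untreated WT. Points are single libraries and bars are exact 95% Poisson intervals of the count; from Il24 down to S100a9 the Il17rc KO point lies 2-fold or more above the untreated one, and the 5 lowest rows show it below all the others.

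Among other secreted factors of the epidermis, a few genes differed, in both directions. Of 20 tested cytokine and chemokine genes outside the previous list, 2 were higher and 3 lower. At a mean of at least 5 CPM the counts were 1 and 2. Of all genes tested, 7.27% were higher and 7.0% lower. Tslp, an epithelial cytokine that acts on dendritic cells, had 777, 865, 2350 and 1115 counts, 2.89-fold higher (2.66 to 3.14), and was highest in Il17rc KO by more than 2-fold. Cxcl12, a stromal chemokine gene, had 44, 99, 158 and 51 counts, 3.43-fold higher (2.44 to 4.91). Cx3cl1, a membrane-bound chemokine gene, had 58, 162, 15 and 69 counts, 4.04-fold lower (2.26 to 7.68), and the skin-homing chemokine gene Ccl27a was 2.74-fold lower (2.26 to 3.35). The 16 antimicrobial and acute phase genes had a median of -0.25, and 4 were called higher and 5 lower. Slpi, a protease inhibitor gene, had 223, 1696, 904 and 628 counts, 3.88-fold higher (3.34 to 4.51), whereas C3 of complement had 445, 1706, 130 and 765 counts, 3.58-fold lower (2.94 to 4.39).

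Cell division genes stood highest in the Il17rc KO library, and this was the broadest difference from untreated WT. Of 42 genes of mitosis and chromosome segregation, 41 were higher and 0 lower, where 7.27% of all genes were higher. Their median log2 ratio was 2.62, against 0.00 for all genes. All 42 were at their highest of the 4 libraries in Il17rc KO. Of 41 genes of DNA replication and S phase, 37 were higher and 0 lower (median 1.77), and 35 were highest of the 4. Against the same untreated library, IL-17A WT had 39 of the 42 mitosis genes higher at a median of 1.40, and Il17rd KO 41 at a median of 1.79. For S phase, IL-17A WT had 32 genes higher and 1 lower, at a median of 1.25, and Il17rd KO 23 and 0, at 1.04. The levels of the mitosis genes summed to 984, 2521, 5760.2 and 3209 CPM in the same order of libraries.

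The leading members act at successive steps of division. Ccna2, the cyclin A gene, had 507, 1666, 4046 and 2046 counts, 7.63-fold higher (6.95 to 8.38) in Il17rc KO. Its partner kinase gene Cdk1 had 539, 1989, 3817 and 2085 counts, 6.77-fold higher (6.18 to 7.42). Both were more than 3-fold above untreated WT in each library with IL-17A, and highest in Il17rc KO. Hmmr (chromosome 11, 40701395 to 40733422, minus strand), a spindle-associated protein gene, had 307, 914, 2945 and 1507 counts, 9.17-fold higher (8.15 to 10.3). Kif11 and Kif23, motor protein genes of the spindle and of cytokinesis, were 7.25-fold (6.52 to 8.09) and 7.75-fold (6.85 to 8.80) higher. Cdc20, an activator of the anaphase-promoting complex, had 544, 1164, 4369 and 2343 counts, 7.68-fold higher (7.02 to 8.41), and its ubiquitin-conjugating partner Ube2c was 7.03-fold higher (6.44 to 7.67). Mki67, the proliferation marker gene, had 1750, 3667, 11189 and 5993 counts, 6.11-fold higher (5.81 to 6.43), and Top2a, the DNA topoisomerase of dividing cells, 1464, 4762, 8769 and 4999 counts, 5.73-fold higher (5.42 to 6.06). In each of these the order was untreated WT lowest and Il17rc KO highest. Bub3, a checkpoint gene, was the member without a call, at 1.93-fold (1.82 to 2.05).

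Among replication genes, Pola1 and Prim1, subunits of the polymerase-primase that starts DNA synthesis, were 5.61-fold (4.70 to 6.73) and 5.19-fold (4.32 to 6.26) higher. Orc1, of the origin recognition complex, had 58, 330, 306 and 208 counts, 5.04-fold higher (3.80 to 6.80), and Mcm10 119, 409, 604 and 337 counts, 4.85-fold higher (3.98 to 5.96). Orc1 was as high in IL-17A WT as in Il17rc KO, unlike Mcm10. Mcm6, a subunit of the replicative helicase, was 2.98-fold higher (2.77 to 3.21) and Uhrf1, which maintains DNA methylation, 4.71-fold higher (4.32 to 5.15), and both have a near-identical copy. The members that missed the rule were E2f1 at 1.46-fold (1.29 to 1.66), Gins2 at 1.64-fold (1.35 to 1.99), Ccne1 at 1.92-fold (1.70 to 2.17) and Pola2, at 330 and 689 counts in untreated WT and Il17rc KO, whose log2 ratio lay just short of 1.

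Regulators that precede S phase were divided. Of 16 cyclin and inhibitor genes 4 were higher and 2 lower (median 0.30), beside 7.27% and 7.0% of all genes. Ccnd1, the cyclin D1 gene (chromosome 7, 144929931 to 144939925, minus strand), had 1546, 8534, 5468 and 3484 counts, 3.38-fold higher (3.19 to 3.58), but it was highest in IL-17A WT. Cdkn2a, the locus of the cell cycle inhibitors p16 and p19ARF, had 114, 93, 38 and 138 counts, 3.14-fold lower (2.16 to 4.66), and its neighbour Cdkn2b had 956, 711, 452 and 808 counts, 2.21-fold lower (1.98 to 2.48). These inhibitor genes were low in Il17rc KO and close together in the other libraries. Cdkn2c, a further inhibitor gene, was 2.65-fold higher (2.23 to 3.17), and Rbl1, which encodes the pocket protein p107, 2.41-fold higher (2.19 to 2.64). Of 23 p53 targets 0 were higher and 1 lower: Bbc3, an apoptosis gene, at 446, 119, 183 and 337 counts, 2.55-fold lower (2.14 to 3.04).

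**Figure D3:**
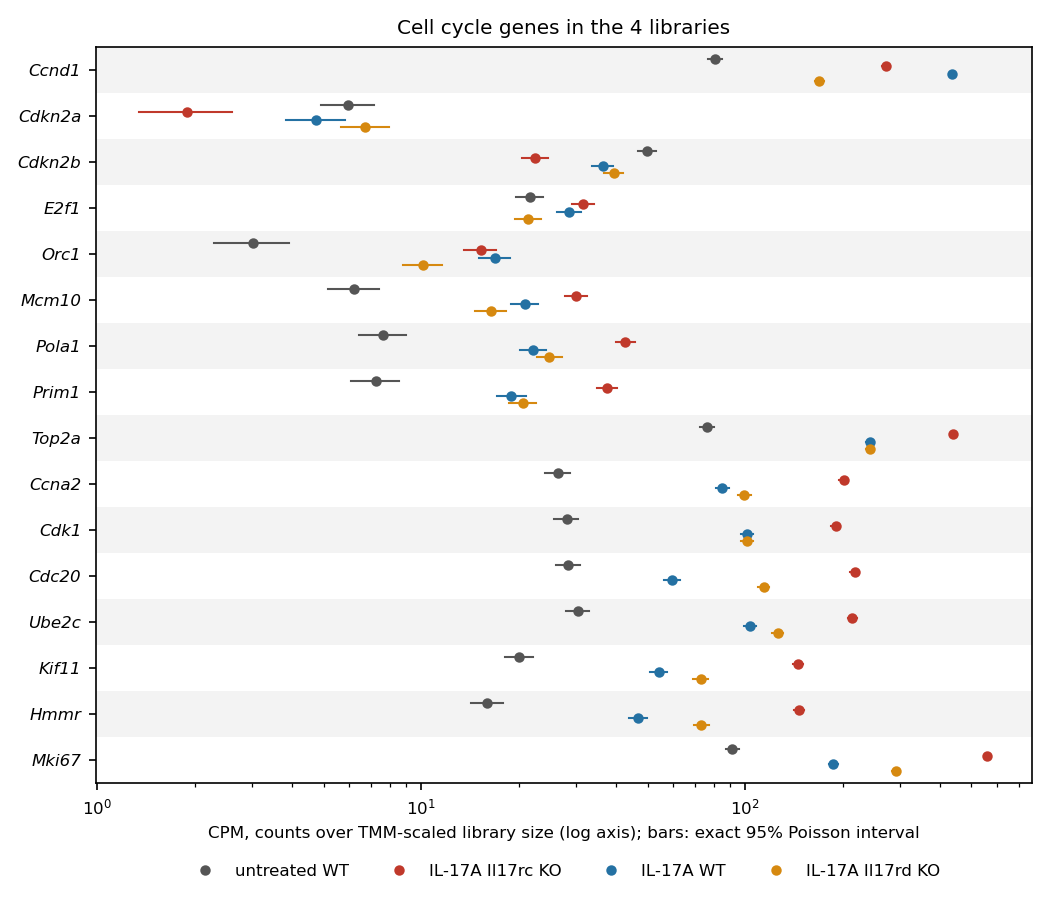
Level of 16 cell cycle genes in CPM (log axis) in each library, from regulators at the top to S phase and mitosis genes below. Points are single libraries and bars exact 95% Poisson intervals; from Mcm10 to Mki67 the red Il17rc KO point is the furthest right and the untreated point the furthest left, while Cdkn2a and Cdkn2b show the opposite place for Il17rc KO.

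Many mitosis genes share a short promoter element. The cell cycle genes homology region, abbreviated CHR, is known as a site of the DREAM and MuvB complexes, and its letters TTTGAA or TTCGAA were searched for on both strands of the promoter entries. These letters occurred in 26 of the 34 mitosis genes with an entry (76.5%), in 13.6% of the 9439 tested genes with one, in 30.0% of the 610 higher genes and in 15.1% of the 621 lower genes. CCAAT, the NF-Y box, occurred in 73.5% of the mitosis genes and 60.0% of the S phase genes, against 38.8% of all. TTTNNCGC, letters of an E2F site, were in 15 of 35 S phase genes (42.9%) and 2 of the 34 mitosis genes (5.9%), against 8.8% of all. These motifs were chosen with the direction of the genes known. Other letters were searched as well, with shares given for higher, lower and all genes. GGAATG, of a TEAD site, was in 13.1%, 16.3% and 11.9%. The E-box CACGTG was in 8.0%, 8.9% and 10.5%, and GAANNTTC, of a heat shock site, in 6.7%, 5.8% and 5.4%. The first 5 windows below show the CHR letters in capitals, for genes of kinase, checkpoint exit, chromosome and spindle function that stood 5.73-fold to 7.68-fold higher. TTCAAA is TTTGAA read on the other strand.
Cdc20: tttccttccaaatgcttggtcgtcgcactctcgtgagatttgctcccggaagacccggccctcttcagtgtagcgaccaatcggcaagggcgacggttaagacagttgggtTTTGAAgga
Cdk1: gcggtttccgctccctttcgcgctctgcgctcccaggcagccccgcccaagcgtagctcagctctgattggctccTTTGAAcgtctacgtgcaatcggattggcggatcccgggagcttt
Top2a: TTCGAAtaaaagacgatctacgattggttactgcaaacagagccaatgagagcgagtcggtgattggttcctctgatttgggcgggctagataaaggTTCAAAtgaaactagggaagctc
Kif11: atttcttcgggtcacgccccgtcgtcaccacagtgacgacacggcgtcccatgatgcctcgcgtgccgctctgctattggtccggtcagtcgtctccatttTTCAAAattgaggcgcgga
Mki67: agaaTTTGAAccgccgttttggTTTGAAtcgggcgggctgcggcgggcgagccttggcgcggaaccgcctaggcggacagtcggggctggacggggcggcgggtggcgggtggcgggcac
The windows are the 120 bases before the outermost annotated start in GRCm38.p6, read in the direction of the gene. They are chr4:118437353-118437472 for Cdc20, chr10:69352939-69353058 for Cdk1, chr11:99024190-99024309 for Top2a and chr7:135716380-135716499 for Mki67, all on the minus strand, and chr19:37376262-37376381 on the plus strand for Kif11. The letters lay 9 bases before the start in Cdc20, 45 in Cdk1 and 19 in Kif11. Top2a held them at 120 and 23 bases and Mki67 at 116 and 98.

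For S phase genes the E2F letters are shown in the promoters of Mcm6 (chr1:128359706-128359825, minus strand) and Uhrf1 (chr17:56303201-56303320, plus strand), again with the motif in capitals.
Mcm6: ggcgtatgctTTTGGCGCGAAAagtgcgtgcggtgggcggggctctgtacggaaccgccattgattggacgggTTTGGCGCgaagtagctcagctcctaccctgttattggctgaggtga
Uhrf1: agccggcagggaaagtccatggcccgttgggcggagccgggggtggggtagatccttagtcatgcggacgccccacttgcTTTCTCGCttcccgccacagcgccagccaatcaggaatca
In Mcm6 the first capital run joins overlapping matches on opposite strands, at 110 and 106 bases, and the last match lies 47 bases before the start. The match in Uhrf1 lies at 40 bases.

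Part of the differentiation genes were lower in Il17rc KO than in untreated WT, while most stayed within the rule. Of 26 genes of the spinous and granular layers, 1 was higher and 9 lower, where 7.0% of all genes were lower, and the median log2 ratio was -0.75. IL-17A WT had 25 of the 26 lower against the same untreated library, at a median of -2.43, and Il17rd KO 9 lower and 1 higher, at -0.79. The Il17rc KO level was above that of IL-17A WT for 25 of the 26 and below untreated WT for 23. Tchh (chromosome 3, 93442330 to 93449077, plus strand), which encodes trichohyalin, had 14722, 671, 1550 and 2234 counts, 9.94-fold lower (9.43 to 10.5). The suprabasal keratin genes Krt10, with 11590, 220, 2220 and 3635 counts, and Krt1, with 48645, 756, 12388 and 22536 counts, were 5.46-fold (5.22 to 5.72) and 4.11-fold (4.03 to 4.19) lower. Each of the 3 was highest in untreated WT and lowest in IL-17A WT, with Il17rc KO between them. Further lower genes encode barrier proteins of the filaggrin type, among them Flg2 at 2.69-fold (2.29 to 3.16), Hrnr at 2.66-fold (2.40 to 2.96) and Rptn at 2.31-fold (2.20 to 2.43). Flg itself was 1.64-fold lower (1.57 to 1.72) and missed the rule. Serpinb12, a serpin gene, was the higher member, at 30, 7, 90 and 171 counts, 2.87-fold (1.88 to 4.49).

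In the cornified envelope list 8 of 40 members were higher and 11 lower (median -0.37), beside 7.27% and 7.0% of all genes. Its members divided by gene family. Without genes that have near-identical copies, 2 were higher and 10 lower, and the median was -0.67. With the whole interval beyond 2-fold the counts were 4 and 6. All 6 genes of the Lce3 family were higher, at a median log2 ratio of 1.30, and summed to 42.5, 17.9, 107 and 186 CPM. Of 14 genes of the Lce1 family 0 were higher and 8 lower, at a median of -1.09, with sums of 403, 48.6, 220 and 293 CPM in that order. Lce3f had 89, 132, 478 and 1001 counts, 5.13-fold higher (4.09 to 6.51), and Lce1j 43, 1, 9 and 27 counts, a log2 ratio of -2.09. Lce3 genes were thus above and Lce1 genes below untreated WT in Il17rc KO, and both families were lowest in IL-17A WT. Members of the Lce3 family match each other closely; with its 5 copies summed, Lce3f remained 2.51-fold higher (2.32 to 2.73). Sprr2e, a small proline-rich protein gene, had 73, 236, 367 and 1375 counts, 4.81-fold higher (3.73 to 6.27), and Lor, the loricrin gene, 16984, 1634, 6072 and 5354 counts, 2.93-fold lower (2.84 to 3.01).

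Letters of an AP-1 site, TGANTCA on either strand, were found in 7 of 20 spinous and granular genes with a promoter entry (35.0%) and 10 of 34 cornified envelope genes (29.4%), against 5.0% of all tested genes with one. Among called genes, the letters were in 5.7% of the 610 higher and 8.1% of the 621 lower genes with an entry. The windows below were picked for holding the letters, from members that differed in opposite directions. They therefore cannot show whether the letters go with a direction. Flg2 (chr3:93197153-93197272) and Rptn (chr3:93393579-93393698) were lower and Serpinb12 (chr1:106934329-106934448) higher, all on the plus strand.
Flg2: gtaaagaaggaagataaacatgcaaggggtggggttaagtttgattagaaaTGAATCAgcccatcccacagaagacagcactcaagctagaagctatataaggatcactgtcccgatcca
Rptn: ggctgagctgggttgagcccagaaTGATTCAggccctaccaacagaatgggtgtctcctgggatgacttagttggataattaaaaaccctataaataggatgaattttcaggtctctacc
Serpinb12: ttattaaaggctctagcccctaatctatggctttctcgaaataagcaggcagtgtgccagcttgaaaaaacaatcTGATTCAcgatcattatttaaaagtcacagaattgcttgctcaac
The run lay 69, 96 and 45 bases before the start in Flg2, Rptn and Serpinb12.

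Of 30 transcription factor genes of epidermal differentiation, 1 was higher and 6 lower (median -0.27), beside 7.27% and 7.0% of all genes. Pou2f3, which acts in the upper layers, had 753, 10, 244 and 289 counts, 3.23-fold lower (2.79 to 3.75). The Id genes, inhibitors of helix-loop-helix factors and targets of BMP signals, were lower as a group, with Id3 at 853, 212, 324 and 482 counts, 2.75-fold (2.42 to 3.14), Id2 at 2.61-fold (2.03 to 3.39) and Id1 at 2.50-fold (1.89 to 3.34). Ovol2, a repressor gene, was the higher member at 2.15-fold (1.44 to 3.28). Barrier lipid synthesis had 0 of 28 genes higher and 1 lower (median -0.49): the phospholipase gene Pla2g2f, at 3448, 98, 690 and 795 counts, 5.23-fold lower (4.82 to 5.68). In the keratin list of wound and simple epithelia 1 of 12 was higher and 3 lower. Krt7, a simple epithelial keratin gene, had 2336, 3445, 625 and 1695 counts, 3.91-fold lower (3.58 to 4.28), and Krt79, of the hair canal, 58, 59, 195 and 22 counts, 3.21-fold higher (2.39 to 4.39). The wound keratin gene Krt6a was at 130123, 128984, 143771 and 126660 counts, with no call.

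Basal keratinocyte genes mostly stayed within 2-fold, with 1 of 20 higher and 3 lower and a median of -0.23. For this list and the next ones, 7.27% of all genes were higher and 7.0% lower. Igfbp2, which binds insulin-like growth factors, had 12965, 460, 1821 and 3460 counts, 7.45-fold lower (7.09 to 7.83), and Krt15, a keratin gene of basal and bulge cells, 497, 51, 195 and 137 counts, 2.67-fold lower (2.25 to 3.16). Col17a1, a hemidesmosome collagen gene, was 2.06-fold lower (2.04 to 2.08), a call that ended with library totals, and Cd44, the hyaluronan receptor gene, 2.08-fold higher (2.02 to 2.14). Integrin, laminin and basement membrane genes had 0 of 34 higher and 6 lower (median -0.33), and 18 of the 34 were at their lowest of the 4 libraries in Il17rc KO. Fn1, the fibronectin gene, had 11236, 10534, 4680 and 9171 counts, 2.51-fold lower (2.43 to 2.60), and Lamb2 3505, 849, 1285 and 1720 counts, 2.85-fold lower (2.68 to 3.04). Fn1 was low in Il17rc KO alone, whereas Lamb2 was lower in all 3 libraries with IL-17A. For the same list IL-17A WT had 10 higher and 6 lower, at a median of 0.53. Among 31 junction genes 3 were higher and 1 lower. Gjb2 (chromosome 14, 57098600 to 57104702, minus strand), which encodes connexin 26, had 143, 373, 1216 and 1182 counts, 8.13-fold higher (6.83 to 9.74), and Gjb6, of connexin 30, 74, 58, 230 and 225 counts, 2.97-fold higher (2.28 to 3.92). The knockout libraries were alike for both connexin genes and above both WT libraries.

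**Figure D4:**
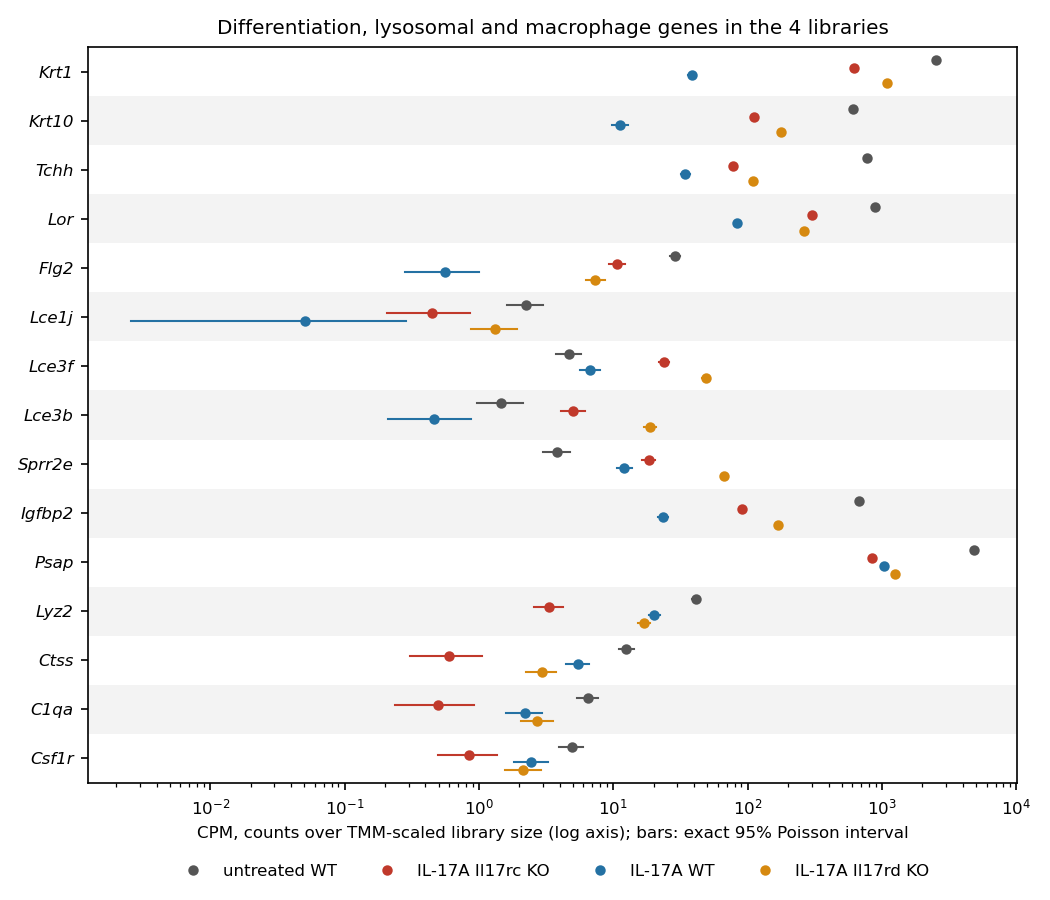
Level of 15 genes of differentiation, growth factor binding, lysosome and macrophages in CPM (log axis) in each library. Points are single libraries and bars exact 95% Poisson intervals; untreated WT is furthest right for all rows except Lce3f, Lce3b and Sprr2e, and Il17rc KO is furthest left for Psap, Lyz2, Ctss, C1qa and Csf1r.

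Genes typical of macrophages formed a large part of the most lowered set. Of the 15 genes whose interval lay furthest below equality, leaving out pseudogenes and unnamed models, 6 belong to it. Lyz2 (chromosome 10, 117277331 to 117282321, minus strand), the lysozyme gene of myeloid cells, had 796, 396, 67 and 348 counts, 12.4-fold lower (9.68 to 16.2), with a near-identical copy. Ctss, the cathepsin S gene, had 239, 106, 12 and 60 counts, 20.8-fold lower (11.7 to 40.9). The complement gene C1qa had 124, 43, 10 and 56 counts, 13.0-fold lower (6.82 to 27.7). Laptm5 at 96, 26, 7 and 34 counts, Mpeg1 at 178, 66, 16 and 73 and the mannose receptor gene Mrc1 at 104, 77, 8 and 58 were all lower, Laptm5 by 14.3-fold (6.70 to 36.6), Mpeg1 by 11.6-fold (6.97 to 20.8) and Mrc1 by 13.6-fold (6.65 to 32.3). These 6 genes were highest in untreated WT and lowest in Il17rc KO, with the other libraries between. In a culture of mixed cells, fewer cells of a type and less RNA per cell cannot be told apart.

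As a whole the immune marker list had 8 of 20 genes tested, with 1 higher and 5 lower and a median of -1.51. Among all genes the shares were 7.27% and 7.0%. The higher marker, Epcam, is also made by keratinocytes, and had 1812, 13348, 4439 and 3521 counts. Without it the 7 remaining markers summed to 87.8, 42.8, 35.6 and 58.3 CPM in the usual order of libraries. Csf1r, the receptor gene of macrophage growth factor, had 94, 48, 17 and 44 counts, 5.78-fold lower (3.43 to 10.3), while Cd68, a lysosomal marker, had 572, 340, 547 and 663 counts and no call. The leukocyte and T cell markers Ptprc, Cd3e, Cd3g and Trdc and the Langerhans marker Cd207 were not among the gene rows. Neither were Adgre1, Tyrobp, Fcer1g, Cd74, H2-Aa, Cd52 and Coro1a of the same list. A gene absent from the rows may still have had counts in a library.

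Other cell types were checked by the same kind of list, where 7.27% of all genes were higher and 7.0% lower. Fibroblast markers had 0 of 15 tested genes higher and 6 lower (median -0.87), and 14 of the 15 lay below untreated WT. IL-17A WT had 1 of them higher and 10 lower. The markers summed to 349, 361, 282 and 401 CPM. Most of each sum was Sparc, at 182, 259, 159 and 219 CPM, so the sums say little about the other markers. Col1a2, a fibrillar collagen gene, had 171, 9, 75 and 134 counts, 2.38-fold lower (1.81 to 3.17). Melanocyte markers had 0 of 12 genes called either way, at a median of -0.32, with sums of 3297, 2043, 2583 and 2928 CPM, and Dct, a pigment enzyme gene, had 10867, 7213, 12304 and 12484 counts. In the nerve and Schwann cell list 1 of 7 tested was higher and 3 lower. All 10 measured members, tested or not, summed to 399.6, 264, 257 and 298 CPM. Endothelial and mural markers had 1 of 7 higher and 2 lower, with sums of 781, 775, 681 and 649 CPM. Most of each sum was Acta2, at 533, 275, 219 and 354 CPM, and Mcam, at 199.7, 456, 417 and 264 CPM. Hair follicle and sebaceous markers had 1 of 11 higher and 3 lower, and their 12 measured members summed to 976, 813, 780.3 and 657 CPM. Skeletal muscle markers had 0 of 3 higher and 2 lower, with sums of 7.82, 9.04, 6.43 and 5.45 CPM. The part of these cells in the lower collagen, laminin, interferon and chemokine genes above and below was not tested.

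Signalling lists differed in their number of calls, where 7.27% of all genes were higher and 7.0% lower. The 15 Notch pathway genes had no call either way, with ratios between log2 -0.62 and 0.52. For Wnt 0 of 38 genes were higher and 6 lower, at a median of -0.41. Wnt16 had 622, 5, 141 and 177 counts, 4.61-fold lower (3.84 to 5.58), and Wnt7a 676, 1743, 216 and 537 counts, 3.27-fold lower (2.80 to 3.83). Both are ligand genes of the epidermis; Wnt16 was lowest in IL-17A WT, where Wnt7a was highest. Porcn (chromosome X, 8193848 to 8206525, minus strand), which encodes the enzyme that acylates Wnt ligands for secretion, was also among the 15 genes furthest below equality, at 14345, 5426, 1993 and 3758 counts, 7.53-fold lower (7.18 to 7.89). TGF-beta and BMP genes had 2 of 34 higher and 7 lower, at -0.24. The higher members were Inhba, the activin A subunit gene, at 3590, 15679, 9829 and 6386 counts, 2.62-fold (2.52 to 2.72), and Fst, of its antagonist follistatin, 2.28-fold (2.20 to 2.37). Tgfbi, a TGF-beta target gene, had 4570, 735, 1794 and 2865 counts, 2.66-fold lower (2.52 to 2.82).

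Of 32 immediate early and ERK feedback genes, 5 were higher and 3 lower, beside 7.27% and 7.0% of all genes. The ETS factor genes Etv5, at 18, 768, 151 and 123 counts, and Etv4, at 46, 1143, 280 and 142 counts, known as targets of ERK, were 8.02-fold (4.91 to 13.9) and 5.82-fold (4.25 to 8.13) higher, with a near-identical copy of Etv5. Fosl1, an AP-1 subunit gene, had 105, 552, 306 and 161 counts, 2.79-fold higher (2.23 to 3.51), and Spred1, an inhibitor of the pathway, 565, 2561, 1356 and 1069 counts, 2.29-fold higher (2.08 to 2.54). These 4 genes were lowest without cytokine, highest in IL-17A WT, and higher in Il17rc KO than in Il17rd KO. Atf3, a stress factor gene, had 199, 224, 660 and 377 counts, 3.17-fold higher (2.70 to 3.73), and did not follow that order. Fos was 2.28-fold lower (1.96 to 2.66). Among 13 EGF receptor family genes 2 were higher and 1 lower: the ligand genes Ereg, at 61, 215, 182 and 132 counts, and Hbegf, at 155, 893, 362 and 341, stood 2.85-fold (2.12 to 3.88) and 2.23-fold (1.84 to 2.71) above untreated WT. The receptor gene Erbb3 was 2.16-fold lower (2.03 to 2.29).

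Of 23 secreted protease and inhibitor genes 4 were higher and 4 lower, where 7.27% of all genes were higher and 7.0% lower. Plaur, the urokinase receptor gene, had 115, 1834, 443 and 237 counts, 3.68-fold higher (2.99 to 4.56), and Mmp3, stromelysin-1, 158, 450, 591 and 661 counts, 3.58-fold higher, with near-identical copies. Mmp11, stromelysin-3, had 173, 41, 22 and 68 counts, 8.23-fold lower (5.26 to 13.5). In the list of embryonic and migratory factors 2 of 16 were higher and 1 lower, with the potassium channel gene Kcnn4 at 48, 2745, 182 and 158 counts, 3.62-fold higher (2.62 to 5.09), and the chromatin gene Hmga1 2.85-fold higher (2.53 to 3.21). Actin and contractility genes had 0 of 31 higher and 6 lower, at a median of -0.35. Acta2, smooth muscle actin, had 10223, 5373, 4387 and 7276 counts, 2.44-fold lower (2.35 to 2.53), and Ctgf, a target of YAP, 2747, 5583, 1219 and 792 counts, 2.36-fold lower (2.20 to 2.52).

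Interferon-stimulated and antigen presentation genes had 0 of 26 higher and 6 lower, at a median of -0.52, beside 7.27% and 7.0% of all genes. Ifit3, an antiviral protein gene, had 75, 10, 17 and 22 counts, 4.61-fold lower (2.70 to 8.34), and Tapbp, of the peptide-loading complex, 4461, 3895, 1955 and 2680 counts, 2.39-fold lower (2.26 to 2.52). The Skint genes, which encode membrane proteins of keratinocytes, had 1 of 5 tested higher and 4 lower. Skint7 was at 263, 13, 45 and 182 counts, 6.11-fold lower (4.44 to 8.59), and Skint3 at 30, 2, 96 and 61 counts, 3.06-fold higher (2.01 to 4.78). The 9 sex-linked genes tested had no call.

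Metabolic and stress lists held a few large differences among many genes near 0, where 7.27% of all genes were higher and 7.0% lower. Sterol and fatty acid synthesis had 1 of 34 genes higher and 0 lower, at 0.28. The 43 nuclear-encoded respiratory chain genes had no call, at a median of 0.16. Glycolysis and hypoxia genes had 2 of 33 higher and 2 lower. Aldoc, an aldolase gene, had 816, 145, 189 and 317 counts, 4.52-fold lower (3.85 to 5.32), and Eno1, enolase 1, 13153, 24964, 31753 and 16843 counts, 2.31-fold higher (2.26 to 2.36). Gapdh, at 294, 3319, 1945 and 2225 counts, is uncertain, since 80 annotated genes match it closely. NRF2 targets had 3 of 24 higher and 1 lower. Gsta4 (chromosome 9, 78182774 to 78209349, plus strand), a glutathione transferase of lipid peroxidation products, had 15, 241, 311 and 179 counts, 19.8-fold higher (11.8 to 35.8), and Osgin1, an oxidative stress gene, 32, 235, 307 and 133 counts, 9.17-fold higher (6.36 to 13.6). Both were low in untreated WT and high in all 3 libraries with IL-17A. Of 35 heat shock and unfolded protein genes 3 were higher and 2 lower: Hsp90aa1 was 3.09-fold higher (3.02 to 3.16), and the pair Hspa1a and Hspa1b, whose reads can be exchanged, was 2.40-fold lower (2.30 to 2.51) when summed.

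**Figure D5:**
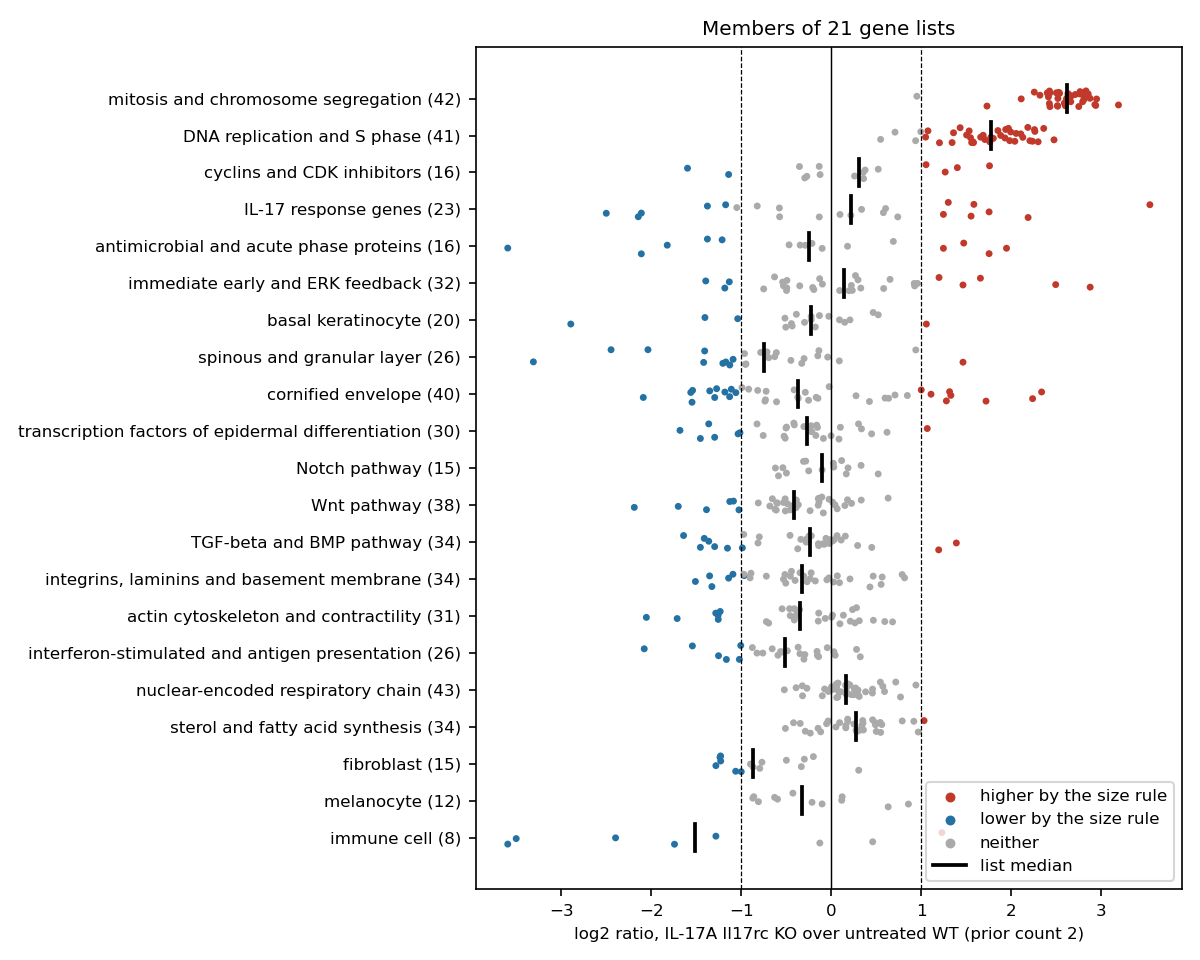
Log2 ratio of IL-17A Il17rc KO over untreated WT (x axis) for the tested members of 21 gene lists, with the number of members in parentheses. Each point is 1 gene, coloured by call, the black bar is the list's median and dashed lines mark 2-fold; mitosis and S phase genes lie to the right as groups, with medians of 2.62 and 1.77, and the other medians lie between -1.51 and 0.30.

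By rank of the interval, 12 pseudogenes or unnamed models were passed over among the genes furthest above untreated WT. The remaining ones were led by mitochondrially encoded genes whose counts are uncertain. mt-Co2, mt-Atp8 and mt-Atp6 together had 163, 2831, 32172 and 216 counts. A block of 7 neighbouring chromosome 1 gene models with mitochondrial sequence summed to 10890, 153409, 55552 and 140392 counts. When each gene was summed with its near-identical copies, mt-Co2 was 6.26-fold (6.01 to 6.52) and mt-Atp6 9.69-fold (9.32 to 10.1) higher in place of 212-fold and 125-fold. All rows with a mitochondrial symbol took 1.34% to 1.73% of the counts of a library, and mt-Co1 and mt-Nd1 were each 1.25-fold higher. mt-Te, a transfer RNA gene, had 2, 109, 425 and 181 counts. The remaining leaders were Gsta4, Camk2b, Hmgb1 and 8 genes of cell division, among them Depdc1a at 10.8-fold (8.83 to 13.4), Sgo1, the protector of centromeric cohesion, at 9.03-fold (7.32 to 11.2), and Prr11 at 8.41-fold (7.30 to 9.72). Hmgb1, a chromatin protein gene, had 178, 272, 1795 and 367 counts, 9.64-fold higher (8.26 to 11.3), with 44 close matches in the genome. Camk2b (chromosome 11, 5969644 to 6066362, minus strand), a calmodulin-dependent kinase gene best known from brain, had 27, 41, 470 and 153 counts, 16.6-fold higher (11.3 to 25.5). It stood apart from the cell cycle genes in that IL-17A WT was near untreated WT.

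On the lower side, the leading genes outside the macrophage and differentiation groups were of varied function. Angptl4, an inhibitor of lipoprotein lipase, had 1042, 435, 132 and 599 counts, 8.26-fold lower (6.88 to 9.97). It was lowest in Il17rc KO by more than 3-fold. Clca3a2, a chloride channel accessory gene with a close paralog, had 1116, 213, 61 and 921 counts, 19.1-fold lower (14.8 to 25.2). Pgm5, a phosphoglucomutase-like gene of adhesion sites, had 172, 8, 14 and 21 counts, Gabrp, a GABA receptor subunit gene, 121, 14, 10 and 34, and Hmcn1, an extracellular matrix gene, 378, 50, 43 and 240. Each of these was lower by 9.20-fold to 12.9-fold.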

How the data were processed

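RNA of cultured mouse keratinocytes was sequenced in 4 libraries, 1 per group. The authors deposited 1 table per library with a raw count and an FPKM value (fragments scaled by gene length and depth) for each gene symbol. Per the submitters' processing notes, which give no role or order, Trim Galore 0.4.4, HISAT2, featureCounts of Subread, edgeR and the build mm10 stand behind the deposited counts and FPKM. The sources used here do not give the annotation or the treatment of strand and of reads with several matches.

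Counts were scaled by TMM over the 4 libraries (edgeR 4.0.16 in R 4.3.3). The scaled ratio of Il17rc KO to untreated WT was taken with an exact 95% Clopper-Pearson interval of the conditional binomial share (SciPy 1.17.1, Python 3.11.15). Intervals cover counting error only, since reads lacking molecular identifiers may repeat a molecule. Genes were called at 2-fold or more with an interval excluding 1, after leaving out 168 rows with a mean under 1 CPM. With 1 library per group this describes the libraries, not the conditions. Log2 ratios and list medians used a prior count of 2. FPKM served for levels between genes and as an alternative.

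Positions come from GENCODE M21 (GRCm38, the assembly of mm10), which matched 12832 of 13102 rows. Near-identical copies, found with BLAST+ 2.17.0, are transcripts at another locus with at least 95% identity over at least 50% of either transcript (2178 genes). A short transcript that matches a small part of a longer gene therefore counts as a copy. Promoter sequences are RefSeq's, 250 bases before to 50 after a start, present for 9439 of the 12933 tested symbols. The scripts were tested on simulated data.

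The comparison and the 34 gene lists and 7 marker lists were chosen with earlier results of these data known. Named by rule were the receptor genes, the 15 properly named genes furthest from equality each way, every IL-17 response gene and up to 4 members of each other list with the largest ratio. Other genes, the neighbours of Il17rc, the gene families, the motifs, the printed windows and the lists under the closing observations were chosen after their values were seen. Alternatives were other scalings (DESeq2 1.42.0 among them), other filters and call rules, other prior counts, FPKM in place of counts, and counts summed with copies. Some genes that the rule names are not reported here. Figures were drawn with matplotlib 3.10.9.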

Additional observations from a re-analysis of the deposited data

How the results depend on the processing

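The 940 higher and 905 lower genes became 1077 and 771 with library totals in place of TMM, and 921 and 937 with DESeq2 size factors. With no filter beyond that already met by all rows they were 969 and 941. With a mean of at least 5 CPM they were 679 and 538. Requiring the whole interval beyond 2-fold gave 590 and 455. Leaving out near-identical copies, pseudogenes and mitochondrially encoded genes gave 646 and 767, and a prior count of 2 in the ratio, an alternative added after seeing the data, 916 and 870. Of 191 named genes, the log2 ratio left its counting interval for 25 with library totals, 1 with DESeq2 size factors and 4 with FPKM, and for 4 of 29 when summed with copies. None of the named genes that were called changed sign under the alternatives run. The signs of list medians were not compared. Col17a1 and Tifa were among the named genes that lost their call with library totals. Of the lists (41, or 40 at 5 CPM and without copies), the higher and lower counts moved by more than 1.5 times in 9 and 14 with the whole interval beyond 2-fold, in 6 and 14 at 5 CPM, in 4 and 4 without copies, and in 4 and 2 with library totals; the mitosis and S phase lists were not among them. No paired analysis was possible because each group has 1 library, and for the same reason no library could be left out. Depth limits genes with few counts, such as Il24 with 2 in untreated WT.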

Other observations

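The gene groups below were put together after the values had been seen, so their counts describe these libraries and carry no test. Of 41 lysosomal genes tested, 10 were lower in Il17rc KO than in untreated WT and 0 higher, where 7.0% of all genes were lower and 7.27% higher. The other 31 did not pass the rule. The median log2 ratio was -0.75, and 30 of the 41 were at their lowest of the 4 libraries. Psap, which encodes the precursor of the saposins that aid sphingolipid breakdown, had 93558, 20100, 16797 and 25621 counts and was 5.83-fold lower (5.73 to 5.92). The cathepsin gene Ctsf had 872, 153, 153 and 349 counts, and Grn, the progranulin gene, 9422, 5603, 4049 and 7455. Psap and Ctsf were low in all 3 libraries with IL-17A. Macrophages also express many lysosomal genes, and the summed level of 14 tested macrophage genes was 252, 78.9, 44.3 and 91.6 CPM in the order of the counts above. Their part in the lysosomal values was not tested. Of 41 autophagy genes 0 were higher and 7 lower, with Pink1, a kinase gene of mitochondrial quality control, at 1411, 414, 352 and 480 counts.

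Of 24 PPAR target and fatty acid oxidation genes 0 were higher and 8 lower, at a median of -0.74, and most did not pass the rule. Cpt1a, which brings fatty acids into mitochondria, had 3603, 799, 1145 and 2136 counts, 3.29-fold lower (3.08 to 3.52), and Ucp2, a mitochondrial carrier gene, 13129, 1676, 3832 and 5472. Of 30 FoxO targets 0 were higher and 10 lower, at -0.63, beside the same 7.0% of all genes. The kinase gene Sgk1 had 6902, 2008, 1848 and 2573 counts and the apoptosis gene Bmf 447, 87, 65 and 260. In these groups IL-17A WT, which shares the untreated library, had 0 higher and 13 lower each time, at medians of -1.04 and -0.83.

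Of 37 genes of homologous recombination and the Fanconi pathway 29 were higher and 0 lower, at a median of 1.79, where 7.27% of all genes were higher, and 33 of the 37 were highest in Il17rc KO. Ribosome biogenesis had 6 of 32 genes higher and 0 lower, at 0.69, where 7.27% of all genes were higher, and 26 did not pass the rule, with 28 at their highest in Il17rc KO and nucleolin, Ncl, at 10236, 19866, 24885 and 18779 counts. Among single genes, AC147512.2, a gene model without a match in the annotation used, had 0 counts in untreated WT and 1414 in Il17rc KO, at least 451-fold higher against a floor of 3 counts in the library.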
